A study of Homo sapiens with 6 samples.

Results

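Galectins are lectins that bind β-galactoside sugars on glycoproteins and glycolipids. They are made in the cytosol, leave the cell without a signal peptide, and crosslink glycoproteins at the cell surface into lattices that hold receptors in place. Inside the cell some of them bind the glycans that become exposed when an endosome or lysosome ruptures. Galectin-3-binding protein, the product of LGALS3BP, is a secreted glycoprotein that carries galectin ligands and is known as an interferon (IFN)-inducible protein. In tumors, extracellular galectins are known for effects on T cells, and galectin-9 is a ligand of the T cell receptor TIM-3.

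The 5 genes described here, LGALS1, LGALS3, LGALS8 and LGALS9 with LGALS3BP, were taken by gene symbol from the 37887 rows of a table of raw counts. They were chosen from their differences between IRF1-silenced and control cells in these same libraries, so their differences, and whether the fit called them, are given as a description, with no p-value printed and none taken as evidence. All 5 were among the 18851 genes that passed a filter on low counts and entered the fit. The cells were BT-549, an established triple-negative breast cancer line, stably carrying a tetracycline-inducible vector with an shRNA against IRF1, a transcription factor of the IFN response, and selected in puromycin. Doxycycline at 500 ng/ml was given to the 3 IRF1-silenced samples (shIRF1), and 0.1% DMSO to the 3 control samples. In their titles the control samples carry a control shRNA, whereas the design text names 1 vector for both groups. On both readings doxycycline cannot be told apart from the shRNA. The triplicates are described as cultures, and a p-value measures only the spread between these samples.

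The total count per library ran from 55143808 in shIRF1 replicate 2 to 160436234, so 3 counts correspond to between 0.0182 and 0.0540 CPM, the share of a library's counts that a gene holds, scaled to a common library total. Of the counts from 2 to 11 in a library, 72.1% to 75.2% were even. Whether fragments were counted more than 1 time was not tested, and if so these 3-count floors are too low. Levels are TMM-scaled CPM, in which library totals are corrected for differences in composition. In a library made from many cells, fewer cells with a transcript and less of it per cell cannot be told apart. The IRF1 levels of control replicates 1 to 3 were 45.3, 48.1 and 51.5 CPM, and those of shIRF1 replicates 1 to 3 were 13.8, 14.9 and 14.6 CPM. It fell to 29.9% of control, a log2 fold change of −1.74 ± 0.06 (SE, n = 3 per group, adjusted p = 4.53e-13, edgeR's quasi-likelihood test, adjusted by the Benjamini-Hochberg method). For the labelled cell type, ESR1 was at most 0.144 CPM and PGR at most 0.325 CPM in any library, and ERBB2 had a mean of 50.8 CPM in control and 36.4 CPM in shIRF1 samples. The 5 mesenchymal markers summed to 1983 to 2097 CPM in control and 1548 to 1645 CPM in shIRF1 samples. In group means, control then shIRF1, VIM had 918 and 625 CPM, FN1 761 and 601, and SNAI2 48.3 and 32.1. ZEB1 had 87.2 and 79.4 CPM, while CDH2 went the other way, with 240 and 245. Of 7 epithelial markers, KRT18 alone had a mean over all 6 samples of at least 1 CPM, while KRT8 had a mean of 1.52 CPM in control and 0.441 CPM in shIRF1 samples. The sum of the 7 was 9.30 to 9.91 CPM in control and 4.05 to 4.54 CPM in shIRF1 samples. The 8 leukocyte markers summed to 0.751 to 0.852 CPM in control and 0.523 to 1.14 CPM in shIRF1 samples, with CD3D and MS4A1 at 0 in every library, and the 3 endothelial markers to at most 0.253 CPM. The part of these marker shifts in the galectin values was not tested.

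The start regions of the genes are shown because IRF1 binds DNA at the IFN-stimulated response element (ISRE). RefSeq promoter windows on GRCh38.p14, each 300 bases long with 250 before and 50 after a transcription start, were found for 4 of the 5 genes, with 3 windows for LGALS8. They were searched on both strands for the ISRE core GAAANNGAA, where N is any base. The core is in 8.11% of all 35116 RefSeq windows of this length. It occurred once in LGALS3BP, read on the strand of the gene at positions −58 to −50 from the start, and once in LGALS9, read on the opposite strand at positions −8 to 1. The matched cores, in capitals below, each stand with 10 bases on either side, 5′ to 3′ on the strand of the gene. The LGALS3BP stretch is chr17:78979963-78979991 on the minus strand, and the LGALS9 stretch is chr17:27631170-27631198 on the plus strand.
LGALS3BP: gtggtttctgGAAATCGAAagtagactct
LGALS9: ttgctttggtTTCTATTTCtttgttaagt
Both cores are followed by 1 more A on the strand on which they read, which makes the longer core that 3.57% of all windows hold. In GENCODE release 29 the LGALS3BP core lies in an untranslated exon of 1 transcript of the gene, and the LGALS9 core in untranslated exons of 4. The LGALS3 window and the 3 LGALS8 windows held no match. The letters TTCNNNGAA of the gamma-activated site, another IFN response element, were in 7.66% of all windows and in 0 of the 6 windows of these genes. A match is a string of letters and was not tested as a binding site.

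In the shIRF1 samples, LGALS3BP was at 7.18% of its control level, LGALS8 at 64.9%, LGALS3 at 75.2% and LGALS1 at 88.5%, whereas LGALS9 was at 114% with overlapping groups. At an adjusted p under 0.05, 4 of the 5 were called lower in shIRF1, and LGALS9 was not called. Over all genes tested, 50.5% were called in either direction, 26.4% lower and 24.1% higher. That balance depended on the scaling, since 4971 genes were lower and 4548 higher here, 4413 and 5171 with upper quartile scaling, and 4309 and 5267 with library size only. The groups did not overlap for LGALS3BP, LGALS8 and LGALS3, beside 56.8% of all genes tested. The median log2 fold change was −0.41 over the 5 genes and 0.00 to 2 decimals over all genes. These counts describe genes chosen from this comparison, and nothing is read from them.

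**Figure D1:**
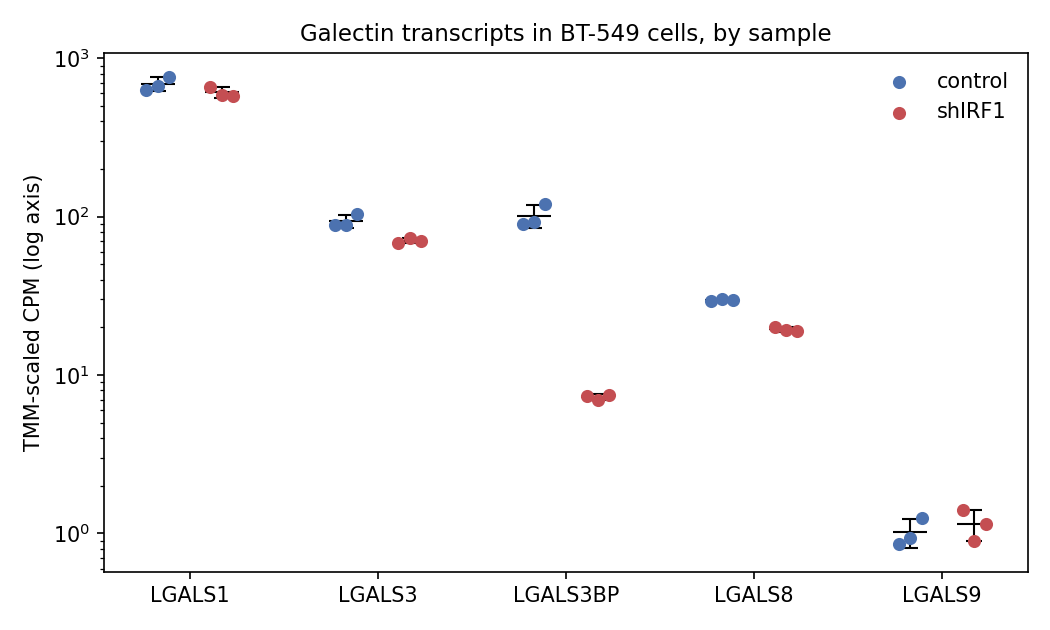
TMM-scaled CPM on a log axis for each of the 5 genes, with 1 point per sample, blue for control and red for shIRF1, and black lines for the mean ± SD of 3 samples. LGALS3BP drops from 90.6 to 121 CPM in control to 6.92 to 7.50 CPM in shIRF1 samples, while the points of LGALS1 and of LGALS9 overlap between the groups.

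Galectin-3 is encoded by LGALS3, on the plus strand at chr14:55124110-55145413 (GRCh38, GENCODE release 29, as are the other gene positions). It is the chimeric galectin, with a collagen-like tail through which it oligomerizes and forms lattices. The LGALS3 levels of control replicates 1 to 3 were 88.5, 88.4 and 104 CPM, and those of shIRF1 replicates 1 to 3 were 67.8, 72.9 and 70.2 CPM. Every shIRF1 sample was below every control sample, and the shIRF1 samples were closer to each other than the control samples were. The means were 93.5 ± 8.83 CPM in control and 70.3 ± 2.55 CPM in shIRF1 samples (SD, n = 3), a log2 fold change of −0.41 ± 0.06 (SE).

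The binding protein of galectin-3, LGALS3BP, lies on the minus strand at chr17:78971238-78980109. Its ISRE core, printed above, is upstream of the RefSeq transcription start but within these GENCODE bounds of the gene. LGALS3BP was at 90.6, 92.5 and 121 CPM in control samples and at 7.37, 6.92 and 7.50 CPM in shIRF1 samples. These shIRF1 levels rest on 929, 384 and 1235 counts. The lowest control sample was above every shIRF1 sample by a wide margin, and control replicate 3 was the highest. The mean fell from 101 ± 16.8 to 7.26 ± 0.307 CPM (SD, n = 3), which is 13.9-fold, with a log2 fold change of −3.79 ± 0.09 (SE, 95% interval −3.99 to −3.60). Of all genes tested, 27 had a lower log2 fold change than LGALS3BP.

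LGALS3BP and LGALS3 encode partner proteins, and the relation between their transcripts differed between the groups. Per kilobase of exon, LGALS3BP was at 0.685, 0.700 and 0.778 of the LGALS3 level in control replicates 1 to 3. In shIRF1 replicates 1 to 3 it was at 0.0727, 0.0634 and 0.0715 of the LGALS3 level. The values below 1 in control samples rest on the division by length, since the mean CPM of LGALS3BP was above that of LGALS3 there. The ratio was thus of the same order in the 3 samples of a group and did not overlap between groups. Both genes were chosen from this comparison, so the ratio restates their changes and is a description.

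Galectin-8, encoded by LGALS8, has carbohydrate-recognition domains in tandem and is the galectin known for marking ruptured vacuoles for autophagy through CALCOCO2 (NDP52). LGALS8 lies on the plus strand at chr1:236518000-236552981. LGALS8 was at 29.4, 30.3 and 29.9 CPM in control samples and at 20.0, 19.3 and 18.9 CPM in shIRF1 samples. The groups were well apart and the spread within each was small. The means were 29.9 ± 0.452 and 19.4 ± 0.577 CPM (SD, n = 3), a log2 fold change of −0.62 ± 0.06 (SE). A limit comes from HEATR1, a ribosome biogenesis gene on the opposite strand whose exons overlap 21.6% of the exonic bases of LGALS8. The use of strand in counting is not given in the sources used here, so reads from the shared bases may have been assigned to either gene or to neither. HEATR1 moved the other way, from 194 ± 4.93 to 218 ± 10.5 CPM (SD), with a log2 fold change of 0.17 ± 0.04 (SE, n = 3 per group, adjusted p = 0.00435, edgeR's quasi-likelihood test). The antisense gene LGALS8-AS1 had means of 0.0894 CPM in control and 0.0988 CPM in shIRF1 samples.

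Galectin-1, encoded by LGALS1 on the plus strand at chr22:37675608-37679806, is the prototype galectin, which acts as a dimer and is abundant in mesenchymal cells. LGALS1 was at 628, 673 and 767 CPM in control samples and at 663, 586 and 581 CPM in shIRF1 samples. The groups overlapped, since shIRF1 replicate 1 lay above control replicate 1. The means were 689 ± 70.8 and 610 ± 45.9 CPM (SD, n = 3), a log2 fold change of −0.18 ± 0.07 (SE, 95% interval −0.31 to −0.04). The value depended on single libraries: it was −0.09 without control replicate 3 and −0.24 without shIRF1 replicate 1. The call held in 7 of 14 other analyses and was lost in the rest, among them those without control replicate 2 (−0.19), control replicate 3, shIRF1 replicate 2 (−0.14) or shIRF1 replicate 3 (−0.14).

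Galectin-9, encoded by LGALS9 on the plus strand at chr17:27629798-27649560, also has recognition domains in tandem. LGALS9 was near 1 CPM, at 0.860, 0.930 and 1.25 CPM in control samples and at 1.41, 0.901 and 1.14 CPM in shIRF1 samples. Its counts were 106, 114 and 187 in control and 178, 50 and 188 in shIRF1 samples, the fewest in the least deeply sequenced library. The groups overlapped, and the spread within each group was wider than the difference between their means of 1.01 ± 0.210 and 1.15 ± 0.256 CPM (SD, n = 3). The log2 fold change was 0.20 ± 0.20 (SE), and its 95% interval ran from −0.21 to 0.62. A fall or a rise within that interval could not be told apart from no change. It was 0.03 without shIRF1 replicate 1 and 0.39 without control replicate 3. LGALS9 has near-identical copies, LGALS9B and LGALS9C, with at most 2 and 6 counts in any library, so reads that fit several of them make its level uncertain.

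Control replicate 3 was the highest control sample for LGALS1, LGALS3, LGALS3BP and LGALS9, and for LGALS8 it lay between the other controls. Without it, the log2 fold changes of LGALS3 and LGALS3BP were −0.33 and −3.64, the smallest falls of the 14 other analyses of these genes.

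**Figure D2:**
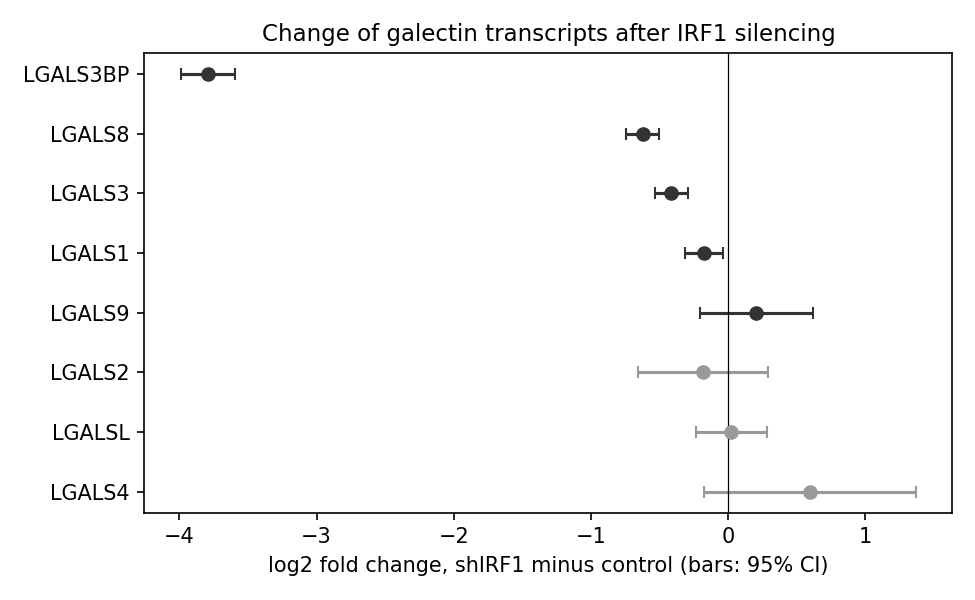
Log2 fold change of shIRF1 minus control with its 95% interval from the fit across all genes, in black for the 5 genes and in gray for the 3 other galectin genes that were tested. The LGALS3BP point at −3.79 stands far to the left of the others, and the intervals of LGALS9, LGALS2, LGALSL and LGALS4 cross 0.

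The order of the levels was compared per length, as CPM per kilobase of merged exons. In control samples LGALS1 was at 627 ± 64.4, LGALS3 at 39.0 ± 3.68, LGALS3BP at 28.2 ± 4.70, LGALS8 at 3.08 ± 0.0465 and LGALS9 at 0.178 ± 0.0368 CPM per kilobase (SD, n = 3). No neighbors in this order overlapped in range. In shIRF1 samples the same order was found, at 555 ± 41.8, 29.3 ± 1.06, 2.03 ± 0.0857, 1.998 ± 0.0594 and 0.202 ± 0.0448 CPM per kilobase. There LGALS3BP, from 1.93 to 2.09, did not differ from LGALS8, from 1.95 to 2.06, beyond the spread of the samples. LGALS1 thus held 93.4% to 93.8% of the summed per-kilobase level of the 4 galectins in control and 94.2% to 95.2% in shIRF1 samples. The merged exons run from 1099 bases for LGALS1 to 9710 for LGALS8 and join all annotated transcripts, which may exceed the transcript made in these cells and then lowers the per-kilobase level.

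**Figure D3:**
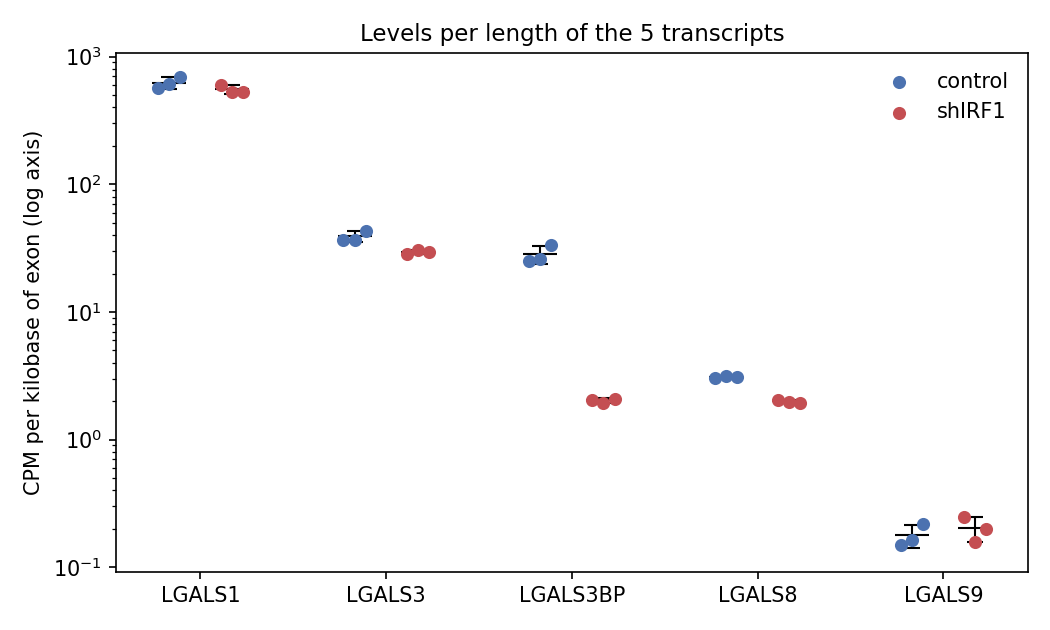
CPM per kilobase of merged exons on a log axis for each gene, with 1 point per sample, blue for control and red for shIRF1, and black lines for the mean ± SD of 3 samples. LGALS1 lies above all others in both groups, and LGALS3BP moves from 25.3 to 33.7 in control down to the LGALS8 level in shIRF1 samples.

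The other galectin genes were at low levels in these cells. Of 14 further names, 13 were in the table and 3 passed the filter. LGALSL, a galectin-like gene, had 2.02 ± 0.125 CPM in control and 2.05 ± 0.148 CPM in shIRF1 samples, with a log2 fold change of 0.02 ± 0.12 (SE, n = 3 per group, adjusted p = 0.889, edgeR's quasi-likelihood test). LGALS2 was at 0.740 ± 0.108 and 0.651 ± 0.141 CPM, with a log2 fold change of −0.18 ± 0.22 (adjusted p = 0.535, edgeR's quasi-likelihood test). LGALS4, a galectin of the gut epithelium, was at 0.160 ± 0.0117 and 0.244 ± 0.0535 CPM, with a log2 fold change of 0.60 ± 0.37 (adjusted p = 0.195, edgeR's quasi-likelihood test). None of these 3 passed the test, though the samples of LGALS4 did not overlap between groups. The other 10 had at most 6 counts in any library, and 5 of them, LGALS7, LGALS12, LGALS14, LGALS16 and GRIFIN, had no count in any library. By the 3-count floor this allows up to 0.0540 CPM in the shallowest one, or more if fragments were counted more than 1 time. The floor does not cover reads that fit more than 1 gene, such as LGALS7 and LGALS7B. How such reads were counted is not given, so the level of LGALS7 is uncertain.

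Galectins act through the glycans of other proteins, so the enzymes that build these glycans, the proteins that carry them and the machinery of lysosome damage were counted from lists written from general knowledge. A gene was called at an adjusted p under 0.05 in edgeR's quasi-likelihood test, adjusted over all genes tested, and a list's shares stand beside 26.4% lower and 24.1% higher over all genes. The lists were chosen with earlier results of these data known, so their shares and p-values are a description. No list was tested as a set, and nothing particular to a list is read from its shares.

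Of 26 genes for ligand glycosylation, 25 were tested, of which 11 (44.0%) fell, 6 (24.0%) rose and 8 were not called, with a median log2 fold change of −0.07. With upper quartile scaling and with library size only, 8 fell and 6 rose. Without control replicate 2 and at an adjusted p under 0.01, 8 fell and 5 rose. The genes with the largest falls make N-acetyllactosamine, the sugar that galectins bind, its chains, or the O-glycan cores that carry them. B4GALT1, the galactosyltransferase that makes N-acetyllactosamine, fell from 597 ± 26.3 to 265 ± 8.82 CPM, a log2 fold change of −1.17 ± 0.05 (adjusted p = 1.49e-12, edgeR's quasi-likelihood test). GCNT1, which makes a branched core of O-glycans, fell from 25.0 ± 0.524 to 11.6 ± 1.21 CPM (log2 fold change −1.12 ± 0.08). B3GNT2, which extends poly-N-acetyllactosamine, fell from 17.9 ± 1.11 to 9.49 ± 0.573 CPM (−0.92 ± 0.07 on the log2 scale). C1GALT1, which makes the core of mucin-type O-glycans, fell from 155 ± 8.04 to 87.0 ± 1.26 CPM (−0.83 ± 0.05 on the log2 scale). Other enzymes that build galactose-bearing glycans rose. GCNT2, which branches poly-N-acetyllactosamine, rose from 33.3 ± 1.35 to 70.3 ± 3.52 CPM (log2 fold change 1.08 ± 0.05). MGAT4B, which branches N-glycans, rose from 105 ± 5.44 to 198 ± 5.86 CPM (0.91 ± 0.05 on the log2 scale), and B4GALT5, another galactosyltransferase, from 121 ± 3.24 to 194 ± 2.87 CPM (0.68 ± 0.04). MGAT5, which makes the N-glycan branch on which galectin-3 lattices depend and was named after its values were seen, changed less, from 57.9 ± 0.502 to 50.4 ± 0.837 CPM (−0.20 ± 0.04 on the log2 scale). MGAT3, also named so, had 0.126 ± 0.0555 CPM in control and 0.744 ± 0.162 CPM in shIRF1 samples and makes, with GCNT2, the 2 genes that rose by more than 2-fold.

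Of 35 binding partners, glycoproteins and receptors that bind galectins or galectin-3-binding protein, 31 were tested. There were 17 (54.8%) that fell, 4 (12.9%) that rose and 10 that were not called, with a median log2 fold change of −0.24. There were 3 integrin α subunits among those that fell. Another, ITGA1, named after its values were seen, had 0.230 ± 0.0707 CPM in control and 0.336 ± 0.0737 CPM in shIRF1 samples. It was not called (log2 fold change 0.53 ± 0.35). ITGA5, the fibronectin receptor subunit, fell from 199 ± 14.2 to 84.3 ± 0.198 CPM (log2 fold change −1.24 ± 0.05, adjusted p = 1.86e-12, edgeR's quasi-likelihood test). The laminin receptor subunits ITGA6 and ITGA3 fell from 211 ± 3.45 to 96.8 ± 5.99 CPM (−1.12 ± 0.05) and from 367 ± 26.6 to 171 ± 5.24 CPM (−1.10 ± 0.05 on the log2 scale). ITGB1, the β subunit that pairs with all of them and was named after its values were seen, had 1727 ± 43.1 and 1750 ± 79.0 CPM (log2 fold change 0.02 ± 0.05) and was not called. CD7, a T cell glycoprotein bound by galectin-1, fell from 2.25 ± 0.151 to 0.654 ± 0.295 CPM (−1.67 ± 0.21 on the log2 scale). INSR, the insulin receptor, rose from 42.6 ± 0.909 to 57.0 ± 1.64 CPM (log2 fold change 0.42 ± 0.04), and P4HB, a disulfide isomerase bound by galectin-9, from 674 ± 30.6 to 744 ± 14.1 CPM (0.14 ± 0.04). MUC1, the mucin that binds galectin-3, also named after its values were seen, had 39.7 ± 4.83 CPM in control and 38.1 ± 1.11 CPM in shIRF1 samples (log2 fold change −0.06 ± 0.07) and was not called. HAVCR2, which encodes TIM-3 and was named so too, rose from 0.0504 ± 0.00873 to 0.162 ± 0.0206 CPM, close to the level of a few counts. Also under 1 CPM on average and named so, MUC16 had the largest fall of the list, from 0.376 ± 0.167 to 0.0881 ± 0.0799 CPM (log2 fold change −2.44 ± 0.53). TNFRSF9, likewise, rose from 0.406 ± 0.121 to 1.04 ± 0.0615 CPM (1.38 ± 0.23).

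All 25 genes of the lysosome damage response were tested, and 8 (32.0%) fell, 5 (20.0%) rose and 12 were not called, with a median log2 fold change of −0.01. The balance turned with the scaling: 8 fell and 8 rose with upper quartile scaling, and 6 fell and 9 rose with library size only. No gene of this list changed by 2-fold or more. MAP1LC3B, the LC3 protein of autophagosome membranes, fell from 252 ± 3.85 to 148 ± 6.51 CPM (log2 fold change −0.77 ± 0.04, adjusted p = 1.57e-10, edgeR's quasi-likelihood test). TFEB, the transcription factor of lysosome genes, fell from 3.76 ± 0.649 to 2.39 ± 0.373 CPM (−0.63 ± 0.14 on the log2 scale). FBXO27, an F-box protein that binds glycoproteins of damaged lysosomes, fell from 5.57 ± 0.164 to 3.65 ± 0.241 CPM (log2 fold change −0.61 ± 0.09). The autophagy receptor SQSTM1 fell from 614 ± 24.2 to 493 ± 11.7 CPM (−0.32 ± 0.04 on the log2 scale). CALCOCO2, the receptor through which galectin-8 acts and named after its values were seen, fell from 62.8 ± 0.801 to 54.9 ± 2.34 CPM (log2 fold change −0.20 ± 0.04). TRIM16, which works with galectin-3 at damaged lysosomes, rose from 25.2 ± 0.538 to 36.4 ± 1.44 CPM (0.53 ± 0.05 on the log2 scale). GABARAPL2 and BECN1, both of the autophagy machinery, rose by 0.23 ± 0.05 and 0.23 ± 0.06 on the log2 scale.

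**Figure D4:**
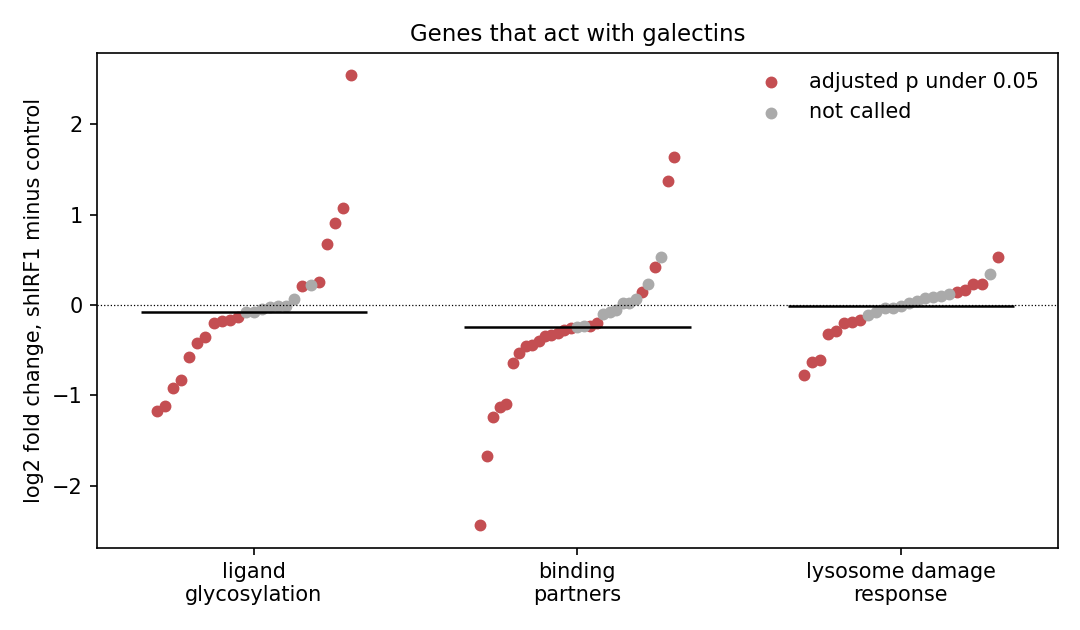
Log2 fold change of shIRF1 minus control for each tested gene of the 3 lists, with 1 point per gene, red where the adjusted p was under 0.05, gray otherwise, and a black bar at the list's median. The bars lie at −0.07, −0.24 and −0.01, and the lysosome damage genes span the narrowest range.

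Of 8 IFN transcription factors, among which the silenced IRF1 itself is counted, 7 (87.5%) fell and 1 (12.5%) rose, beside 26.4% and 24.1% over all genes, with a median log2 fold change of −1.10. This list was not tested as a set either. STAT3, named after its values were seen, was the one that rose, from 339 ± 7.85 to 371 ± 10.8 CPM (log2 fold change 0.13 ± 0.04). STAT2, which type I IFN receptors activate, fell from 64.1 to 31.9 CPM in the group means. IRF9, which binds STAT2 and directs it to the ISRE, fell from 4.69 to 1.71 CPM.

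The genes whose levels followed each galectin most closely over the 6 samples were found by Pearson's r of log2 CPM among the 13061 genes whose mean reached 1 CPM. The 6 samples fall into 2 groups, so that r between genes that differ strongly between the groups is high for that reason alone, and it is given as a description. For LGALS3BP these were H1F0, a linker histone, and B2M, the light chain of MHC class I (r = 0.9999 and 0.9998), among 2532 genes above 0.95. B2M fell from 483 to 194 CPM, a smaller change than that of LGALS3BP. For LGALS8 they were OSR2 and LRATD2 (r = 0.999 for each), among 2447 genes above 0.95, and for LGALS3 ZNF385B and VPS11 (r = 0.998 and 0.997), among 582. LGALS1 and LGALS9, whose groups overlapped, had 26 and 27 genes above 0.95. LSM4 and AGPAT1 were closest to LGALS1 (r = 0.985 and 0.983), and GLRX5 and COPE to LGALS9 (r = 0.992 and 0.988).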

How the data were processed

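RNA-seq was analysed for 3 control and 3 shIRF1 samples of BT-549 cells. The table the authors deposited holds raw counts for each gene symbol, not normalized, from TruSeq Stranded mRNA libraries. The submitters' processing notes name CASAVA 1.8.2, STAR 2.7.9a, featureCounts, DESeq2 1.24.0 and GRCh38.p7. The annotation release, strand setting and filters are not given in the sources used here. Of the listed symbols, 10041 had no count in any sample.

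Samples were grouped by the treatment in their labels. Counts were fitted with edgeR 4.0.16 in R 4.3.3 (quasi-likelihood test, TMM, filterByExpr with a minimum count of 10, group as the single factor), and p-values were adjusted by the Benjamini-Hochberg method over 18851 genes. The fit was tested on simulated data. The SE is the log2 fold change divided by the square root of F. The 3-count floors cover counting error only. Exon lengths came from GENCODE release 29.

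The genes and lists were chosen with earlier results of these data known. From each list the 4 largest falls and 3 largest rises were named among called genes whose mean reached 1 CPM, of which the binding partners had 2 rises. Alternatives were DESeq2 1.42.0, other scalings and filters, a stricter threshold, halved counts, a replicate block and leaving out each library. The count of genes called lower was followed over them as a choice made after seeing the data.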

Additional observations from a re-analysis of the deposited data

How the results depend on the processing

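All 5 genes and IRF1 kept their sign in all 14 other analyses. LGALS3, LGALS3BP, LGALS8 and IRF1 were called in every one, LGALS9 in 0 and LGALS1 in 7. Ranges were −0.24 to −0.09 for LGALS1, −0.45 to −0.33 for LGALS3, −3.87 to −3.64 for LGALS3BP, −0.65 to −0.57 for LGALS8, 0.03 to 0.39 for LGALS9 and −1.79 to −1.69 for IRF1. LGALS8 was −0.58 with upper quartile scaling and −0.57 with library size only. Also lost was the call of LGALS1 with these scalings and when genes needed 1 CPM or more in 3 or more samples. Lysosome damage genes that rose, 5 in the report, numbered 8, 9 and 8 under those 3 settings beside 8, 6 and 8 that fell, and binding partners that rose, 4 in the report, numbered 2 under that filter. The cause was not tested. The median log2 fold change over all genes was −0.002 in the report, 0.041 with upper quartile scaling and 0.049 with library size only. With that filter, which tests fewer genes, it was 0.004. Without division by length, 9 of 10 pairs of genes kept the order of their control levels, and LGALS3BP moved above LGALS3 (101 against 93.5 CPM). In shIRF1 samples the pair that turned was LGALS8 and LGALS3BP (19.4 against 7.26 CPM).

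The correlations of deviations between same-numbered samples were −0.0941, 0.0501 and 0.118, so the numbers were not taken to pair the samples. The fit with the replicate block gave −0.17, −0.41, −3.80, −0.62 and 0.18 on the log2 scale for LGALS1, LGALS3, LGALS3BP, LGALS8 and LGALS9, with −1.74 for IRF1, and 4 genes were called lower. The counts were halved because of the large share of even counts. With halved counts the LGALS9 value was 0.22 ± 0.19 (SE), beside 0.20 ± 0.20 with all counts. Halving leaves the spread between samples in place, so a like SE cannot show whether fragments were counted more than 1 time.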
